A study of Arabidopsis thaliana with 24 samples.

Results

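The genes described here are 100 nuclear genes whose transcripts were higher in root tips of the Arabidopsis thaliana mutant gun1-101 than in wild type (WT, labelled Col) both on control medium and on spectinomycin, and changed little between the media in WT. Levels were in CPM, each library's counts scaled to a common total. Differences were taken between group means on the log2(CPM + 1) scale, which understates the change of low genes. A gene was eligible when its mean was at least 5 CPM in gun1-101 on both media and its WT means differed by less than 0.3 log2 units between media. Of 24497 genes measured, 10159 were eligible, and the 100 with the largest value of the smaller of the 2 gun1-101 minus WT differences were taken. The genes were thus chosen by their gun1-101 against WT values, which are given as a description without a test.

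The study grew seedlings of 4 genotypes, WT, gun1-101, nac103-11 and the line 35S:NAC103-GFP (called NAC103-OX), for about 5 days and then moved them to solid medium with 10 mg/L spectinomycin or kept them as controls. Incubation is given as about 16 h in the treatment protocol and as about 24 h in the design text. Root tips of about 0.5 cm were collected, and each genotype on each medium was represented by 3 libraries, 24 in all. The labels call the libraries biological replicates but do not say whether they came from separate plates, so the tests measure the spread between these samples. The batch label has 1 value for each group, so batch and group cannot be told apart. NAC103-OX carries a NAC103-GFP fusion behind the 35S promoter, which is active in most tissues, and each mutant was represented by 1 named allele. How control seedlings were handled at transfer is not given in the sources used here.

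GUN1 encodes a plastid pentatricopeptide repeat protein that takes part in plastid-to-nucleus signalling, by which the state of the plastid alters nuclear gene expression. Spectinomycin blocks translation on plastid ribosomes and is used to provoke such signalling. NAC103 encodes a NAC transcription factor known from the unfolded-protein response of the endoplasmic reticulum. Plant immunity, to which many of the genes below belong, uses receptor kinases at the cell surface, intracellular nucleotide-binding leucine-rich repeat (NLR) receptors, MAP kinase cascades and the lipase-like EDS1 and PAD4 proteins.

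On control medium GUN1 itself was at 151 ± 4.23 CPM (SD, n = 3) in WT; gun1-101 retained 76.7 ± 6.35 CPM. On spectinomycin the levels were 153 ± 4.54 and 73.0 ± 1.94 CPM. NAC103 was at 18.3 ± 0.769 CPM in NAC103-OX against 0.779 ± 0.146 CPM in WT and 0.572 ± 0.129 CPM in nac103-11 on control medium. On spectinomycin it was at 0.606 ± 0.0453 CPM in WT and 0.0830 ± 0.0723 CPM in nac103-11. WT and nac103-11 were thus under 1 CPM on both media, a level at which the transcript is at most a weak check of the nac103-11 label. Library totals ran from 13012580 to 17411876 counts. Of 23 root marker genes, 20 to 22 reached 1 CPM in each group. Their summed levels on control medium were 559 to 568 CPM in gun1-101, 588 to 623 (WT), 594 to 609 (nac103-11) and 693 to 723 (NAC103-OX). The spectinomycin ranges were 575 to 589 CPM (gun1-101), 682 to 698 (WT), 675 to 682 (nac103-11) and 710 to 728 (NAC103-OX). With library totals, gun1-101 was thus lowest on both media without overlap. Trimmed-mean (TMM) scaling would raise gun1-101 against WT by 0.19 log2 units on control medium and 0.23 on spectinomycin. The sums were not recomputed with it, so the order depends on the scaling and was not tested. In edgeR's test of gun1-101 against WT, 8 of the 23 root markers were lower and 3 higher on control medium. On spectinomycin 6 were lower and 3 higher. Among all tested genes 15.8% were lower and 24.7% higher on control medium, and 29.3% and 27.7% on spectinomycin. The 6 shoot markers present ranged in summed level on control medium between 93.3 and 259 CPM (WT libraries), 227 and 243 (gun1-101), 95.4 and 103 (nac103-11), and 154 and 168 (NAC103-OX). On spectinomycin the ranges were 268 to 284 CPM (WT libraries), 257 to 283 (gun1-101), 192 to 214 (nac103-11), and 136 to 151 (NAC103-OX). FAMA, a guard cell marker, was at 0 in every group except nac103-11 on spectinomycin, and 4 shoot markers had enough counts to be tested. All 4 were higher in gun1-101 than in WT on control medium, with a median of 1.65 log2 units, and 2 were higher on spectinomycin, with a median of 0.73 over the 4. LHCB1.1 and CA1, the 2 higher on spectinomycin, were at 0.164 and 0.392 CPM in WT on control medium and changed there by 2.46 and 2.95. RBCS1A and LHCB1.3, at 76.6 ± 42.3 and 71.3 ± 53.0 CPM in WT on control medium, changed there by 0.81 and 0.84. Of 29 photosynthesis genes, 25 were higher in gun1-101 on control medium and 12 higher and 2 lower on spectinomycin. The part of root marker, shoot marker and photosynthesis levels in the results was not tested. In bulk root tips, fewer cells of a type and less RNA per cell cannot be told apart. WT control replicate 2 stood apart from its 2 partners, with a chi-square per degree of freedom of 8.90 and 9.02 against 1.81 between the partners.

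Genes were selected for a rise on both media, so like differences on the 2 media follow in part from the selection. The median ratio of gun1-101 to WT means was 2.02 on control medium (range 1.58 to 14.7) and 2.11 on spectinomycin (1.61 to 15.7). In log2 units the median difference was 0.96 on both media, from 0.64 to 2.88 on control medium and from 0.64 to 2.34 on spectinomycin. The median difference over all eligible genes was -0.18 on control medium and -0.21 on spectinomycin. Trimmed-mean (TMM) scaling in place of library totals shifts log2 CPM in gun1-101 against WT by 0.19 on control medium and 0.23 on spectinomycin. For 34 genes the difference was at least 1 log2 unit on both media, and for 10 at least 1.5.

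Library by library, the separation was nearly complete. The 3 gun1-101 libraries lay above the 3 WT libraries on both media for 99 of 100 genes, against 7.08% of eligible genes, a contrast the selection used. GRP3S, a glycine-rich protein gene, was the exception. All 6 gun1-101 libraries lay above the 18 libraries of the other genotypes for 84 genes, against 2.91% of eligible genes. The selection used the gun1-101 libraries and the WT libraries among the 18, so this contrast too is a description. The median gene read 14.6 to 16.5 CPM in the gun1-101 libraries and 6.81 to 9.39 CPM in the others. Per length, the WT control median was 5.64 FPKM (fragments per length and depth) for these genes and 21.0 FPKM for all eligible genes, so the set was drawn from lower levels in WT.

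At the edge of the set, AT5G43420, a RING/U-box protein gene, was the last gene inside with a smaller difference of 0.64 log2 units, and RLP3 was the first outside with 0.63. The limit on the WT response kept out 714 genes whose differences would otherwise have placed them inside, and the minimum level alone kept out 85. ERF4 had the WT response closest to the limit, at -0.30.

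**Figure D1:**
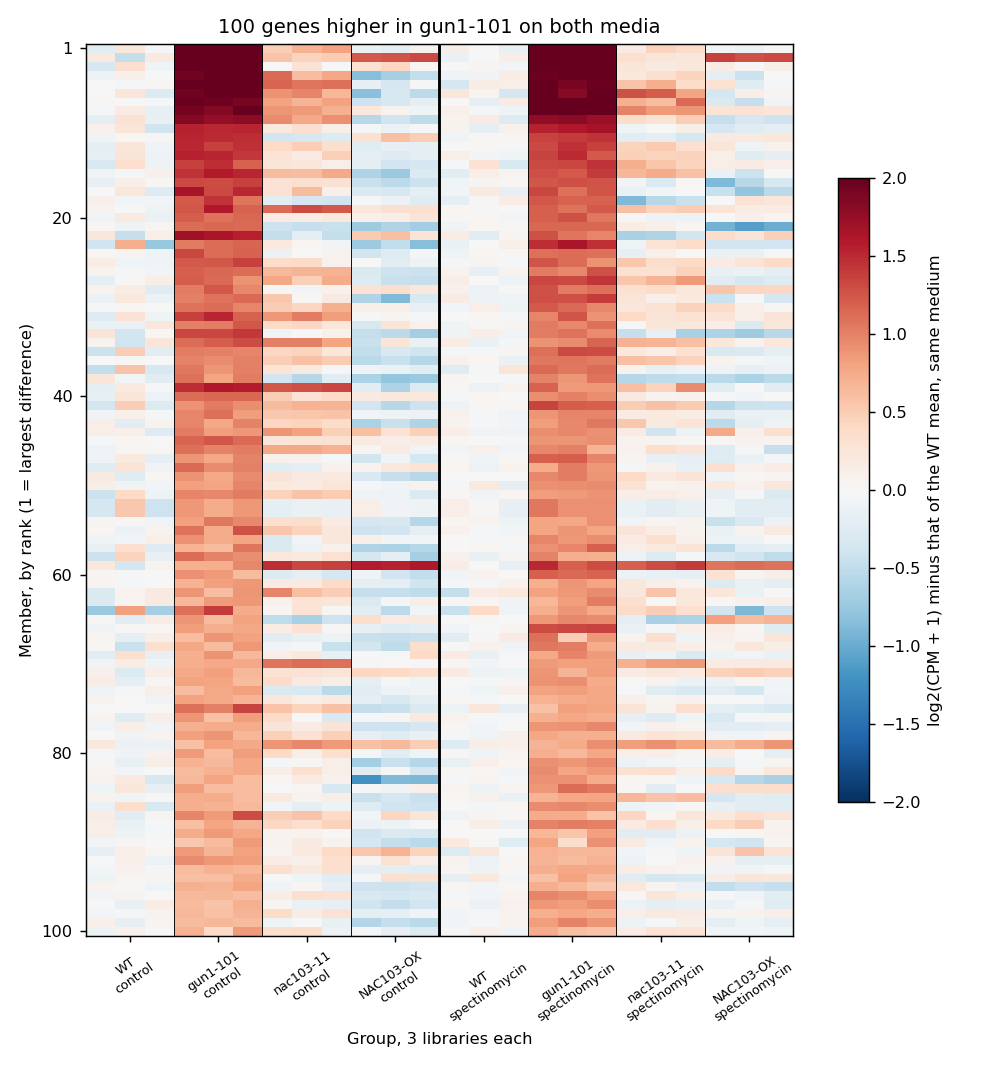
Each row is 1 of the 100 genes, ranked from the largest difference, and each column 1 of 24 libraries; colour gives log2(CPM + 1) minus that of the WT mean on the same medium, with colour saturating at 2 log2 units. The gun1-101 columns are raised on both media in every row, while the nac103-11 and NAC103-OX columns differ from WT in both directions.

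First in rank was AT5G64870, which encodes a membrane-associated protein with an SPFH/Band 7 domain. It read 0.249, 0.703 and 0.434 CPM in the WT libraries and 6.79, 7.39 and 6.15 CPM in those of gun1-101 on control medium, and 0.480, 0.371 and 0.234 CPM in the WT libraries and 5.39, 5.34 and 6.36 CPM in those of gun1-101 on spectinomycin. Every gun1-101 library was above every WT library, and the differences were 2.41 and 2.30 log2 units on the 2 media. In nac103-11 it read 1.06, 1.37 and 1.56 CPM on control medium and 0.529, 0.861 and 0.759 CPM on spectinomycin, and every NAC103-OX library was within 0.251 to 0.377 CPM on spectinomycin.

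XTR6, a xyloglucan endotransglycosylase gene whose family remodels the cell wall, was among the more abundant of the leading genes. On control medium it read 18.4, 11.2 and 18.4 CPM in the WT libraries and 71.4, 76.4 and 69.1 CPM in those of gun1-101. On spectinomycin it read 11.8, 12.9 and 14.4 CPM in the WT libraries and 61.3, 67 and 67.3 CPM in those of gun1-101. Here NAC103-OX was also high, at 38.6, 39.6 and 41.5 CPM on control medium and 35.1, 32.8 and 34.1 CPM on spectinomycin, between WT and gun1-101 with no overlap with either. nac103-11 was at 24.3, 22 and 23.2 and 16.5, 15.5 and 15.4 CPM.

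DMP1 encodes a DUF679 membrane protein. Control medium gave 4.92, 8.27 and 5.93 CPM in the WT libraries and 28.3, 32.5 and 28.4 CPM in those of gun1-101, and spectinomycin gave 5.83, 6.12 and 5.63 CPM in the WT libraries and 28.3, 28.7 and 29.5 CPM in those of gun1-101. The other genotypes stayed near WT, from 5.96 to 8.88 CPM over the 12 libraries of nac103-11 and NAC103-OX. At17.1 (AT2G01340), annotated as a plastid movement impaired protein, read 2.12, 2.05 and 2.17 CPM in the WT libraries and 22, 25.6 and 18 CPM in those of gun1-101 on control medium and 1.17, 2.04 and 1.99 CPM in the WT libraries and 10.5, 9.16 and 9.65 CPM in those of gun1-101 on spectinomycin. Its difference was 2.88 log2 units on control medium and 1.98 on spectinomycin, and libraries of gun1-101 and WT did not overlap on either medium.

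The remaining genes of the first 20 differed by 1.15 to 2.01 log2 units on the medium with the smaller difference. They were AT3G48450 (RIN4 family), AT1G15010, MYB77, AT3G55840 (Hs1pro-1 protein), CCR2, PES2, AT3G56210 (ARM repeat protein), AT1G66500 and AT5G43620 (both annotated to the pre-mRNA cleavage complex), AT5G44350, AT3G22060, AT5G63250, AT3G04220, GSTU3, MYB2 and AT1G13340. AT1G66500 and AT5G43620 had differences of 1.45 and 1.35 on control medium and 1.38 and 1.37 on spectinomycin.

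**Figure D2:**
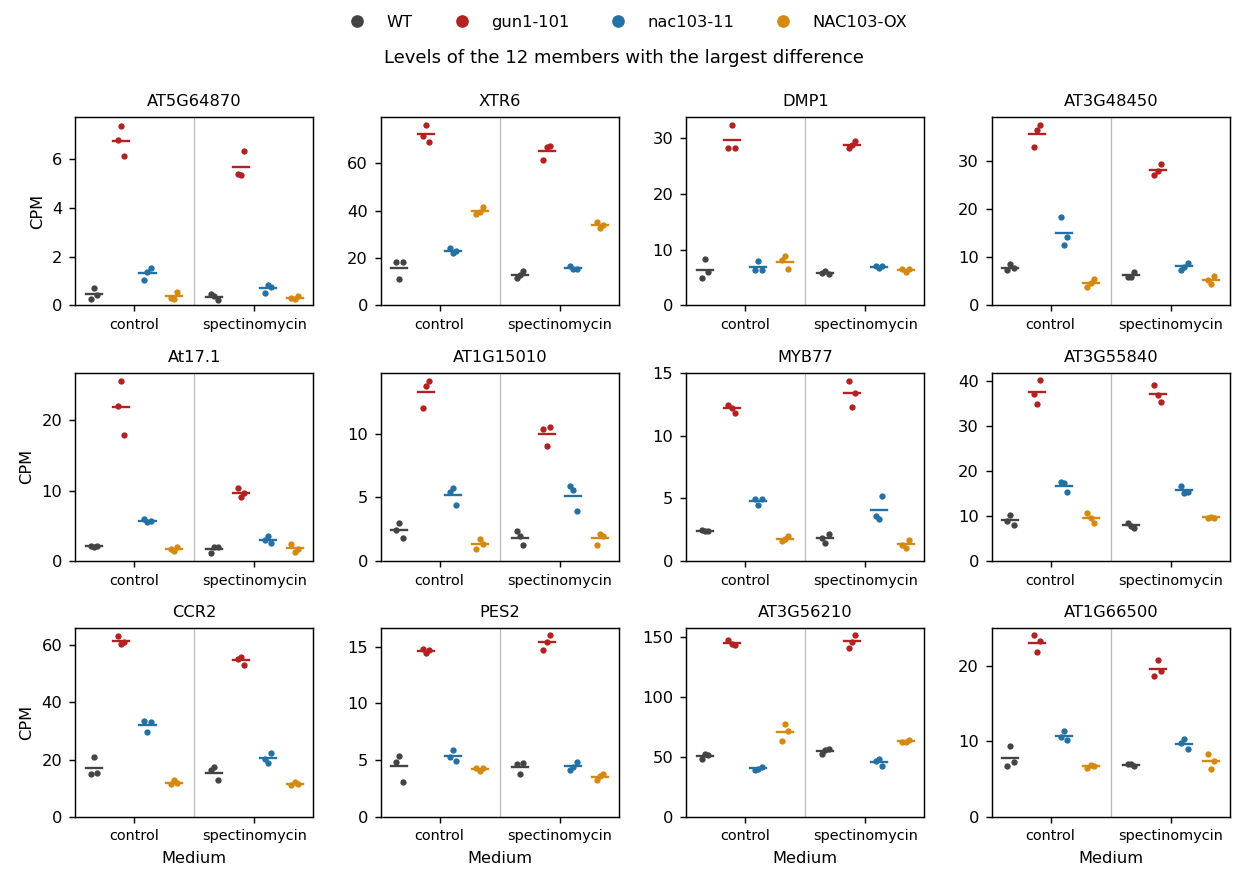
Level in CPM (vertical axis, starting at 0) in each of 24 libraries for the 12 genes with the largest difference, by medium and genotype; points are libraries and bars are group means of 3. In every panel the red gun1-101 points lie above those of the other genotypes on both media; NAC103-OX (orange) lies between for XTR6.

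By function, 56 of the 100 genes were placed in 4 role groups after their names were seen. The largest, receptors and immune signalling, held 21 genes, with median differences of 0.87 on control medium and 0.96 on spectinomycin. In it, 19 of 21 had all gun1-101 libraries above all others, beside 84 of all 100 genes. The other 3 groups, in the order given below, had 7 of 8, 13 of 14 and 11 of 13. Genes annotated as NLR disease resistance proteins were 7 of 100 among the members and 0.571% of eligible genes. The 7 count both AT1G58807 and AT1G59124, whose counts were identical. Genes whose annotation names a protein kinase or receptor-like kinase were 10 of 100 against 2.98%. The 10 include AT3G22060, which is annotated only as kinase-related. These words were searched after the genes were seen, so the shares are descriptions.

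Among the NLR genes, SNC1, a TIR-class receptor whose gain of function causes constitutive immunity, read 32.6, 46.3 and 29.1 CPM in the WT libraries and 60.1, 59 and 57 CPM in those of gun1-101 on control medium. On spectinomycin it read 30, 29.7 and 31.3 CPM in the WT libraries and 59.2, 60.2 and 58.4 CPM in those of gun1-101. gun1-101 was above WT throughout, although WT control replicate 2 was the highest WT library. RPP13, an NLR that recognises a downy mildew effector, read 3.55, 8.5 and 4.12 CPM in the WT libraries and 12.3, 10.7 and 11.8 CPM in those of gun1-101 on control medium and 4.32, 5.13 and 6.45 CPM in the WT libraries and 12.8, 12.1 and 12.7 CPM in those of gun1-101 on spectinomycin. WT control replicate 2 was again the highest WT library, below each gun1-101 library. AT3G04220, another TIR-class NLR, was at 7.86, 6.05 and 6.99 CPM in gun1-101 control against 1.81, 2.29 and 1.37 in WT. AT1G58807 and AT1G59124 had identical counts in all 24 libraries, so they give 1 measurement, and how reads were split between these near-identical copies is uncertain. Each was at 17.6 ± 0.888 CPM in gun1-101 and 9.48 ± 4.18 in WT on control medium (mean ± SD, n = 3).

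PAD4, a lipase-like partner of EDS1 in basal immunity and in signalling by TIR-class NLRs, read 25.7, 22.5 and 22.5 CPM in the WT libraries and 42.6, 41.6 and 47.2 CPM in those of gun1-101 on control medium. On spectinomycin it read 20.6, 24.4 and 18.7 CPM in the WT libraries and 40.8, 41.2 and 41.8 CPM in those of gun1-101, and the genotypes did not overlap. AT3G48450, annotated to the RIN4 family, read 7.29, 8.56 and 7.8 CPM in the WT libraries and 32.9, 36.4 and 37.5 CPM in those of gun1-101 on control medium. On spectinomycin the gene read 5.83, 5.93 and 7.03 CPM in the WT libraries and 27.2, 28 and 29.4 CPM in those of gun1-101. It was raised in nac103-11 control as well, at 18.4, 12.7 and 14.2 CPM, and lower in NAC103-OX control, at 3.92, 4.58 and 5.4 CPM. MKK4, a MAP kinase kinase activated by pattern receptors, read 19.3, 16.9 and 20.5 CPM in the WT libraries and 31, 30 and 33 CPM in those of gun1-101 on control medium and 13.7, 16.5 and 15.7 CPM in the WT libraries and 29.7, 28.9 and 30.2 CPM in those of gun1-101 on spectinomycin. LYK5, a receptor kinase for fungal chitin, read 8.91, 10 and 10 CPM in the WT libraries and 15.1, 15.2 and 16.8 CPM in those of gun1-101 on control medium. These 4 genes differed by 0.65 to 2.04 log2 units on control medium. The surface proteins CRK18 and RLP50, the subtilase SBT3.3, NHL2 and the chitinase-family gene AT3G47540 also belonged to the group.

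Transcriptional regulators numbered 8, with median differences of 1.07 and 1.11 on the 2 media. MYB77, known for its part in auxin-dependent lateral root growth, read 2.49, 2.4 and 2.38 CPM in the WT libraries and 12.5, 12.2 and 11.8 CPM in those of gun1-101 on control medium and 1.85, 1.48 and 2.17 CPM in the WT libraries and 14.4, 12.3 and 13.4 CPM in those of gun1-101 on spectinomycin. ERF4, a repressor of ethylene-responsive genes, read 85.3, 87.2 and 85.3 CPM in the WT libraries and 172, 166 and 175 CPM in those of gun1-101 on control medium and 74, 72.1 and 63.4 CPM in the WT libraries and 147, 147 and 144 CPM in those of gun1-101 on spectinomycin. Its nac103-11 libraries lay between WT and gun1-101 on both media, at 121 to 129.7 and 96.6 to 106 CPM. MYB2, a regulator of drought and senescence responses, read 6.85, 9.03 and 6.53 CPM in gun1-101 control and 6.23, 7.18 and 6.78 CPM in nac103-11 control, which overlapped, against 2.49, 2.34 and 2.1 CPM in WT. DOF1, GATA5, the GRAS-family gene AT5G59450, AT5G44350 and ZPR1, a small inhibitor of HD-ZIP III factors, made up the rest.

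Genes of the cell wall, lipids and specialised metabolism numbered 14, with median differences of 1.07 and 1.1. CCR2, a cinnamoyl-CoA reductase of the lignin branch, read 15, 21 and 15.2 CPM in the WT libraries and 63.4, 60.4 and 61.2 CPM in those of gun1-101 on control medium and 16.2, 17.3 and 12.8 CPM in the WT libraries and 55.4, 56.1 and 53.2 CPM in those of gun1-101 on spectinomycin. CYP79B3, which turns tryptophan into indole-3-acetaldoxime, the entry to indole glucosinolates and camalexin, read 90.4, 82.3 and 91.3 CPM in the WT libraries and 192, 196 and 195 CPM in those of gun1-101 on control medium and 94.9, 102 and 101 CPM in the WT libraries and 222, 222 and 221 CPM in those of gun1-101 on spectinomycin. The other genes of the group include PES2, a phytyl ester synthase of plastid lipids, GSTU3, BGLU17, UXS6, a UDP-xylose synthase, GPAT2 and MES16. PES2 was at 14.7 ± 0.179 CPM in gun1-101 and 4.43 ± 1.19 in WT on control medium.

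Signalling enzymes, transporters and trafficking genes numbered 13, with median differences of 0.80 and 0.88. SAL1, a phosphatase that removes the retrograde signal phosphoadenosine phosphate, read 18.5, 16.6 and 20.7 CPM in the WT libraries and 29.5, 28.3 and 31.3 CPM in those of gun1-101 on control medium and 17.4, 15.8 and 18.4 CPM in the WT libraries and 32.1, 31.4 and 33.6 CPM in those of gun1-101 on spectinomycin. The gun1-101 libraries were highest, and the nac103-11 and NAC103-OX means were below WT on both media. TPS11, a class II trehalose phosphate synthase, was the most abundant member in WT by CPM and is described with the other genotypes below. CIPK9, a kinase of potassium deficiency signalling, read 4.17, 3.4 and 4.63 CPM in the WT libraries and 8.37, 6.87 and 7.84 CPM in those of gun1-101 on control medium. PS2, a phosphatase induced by phosphate starvation, read 2.62, 1.23 and 2.38 CPM in the WT libraries and 9.01, 8.58 and 8.07 CPM in those of gun1-101 on control medium and 3.02, 2.1 and 2.75 CPM in the WT libraries and 7.8, 6.61 and 6.15 CPM in those of gun1-101 on spectinomycin. SLAH2, a nitrate-permeable anion channel gene, was at 19.4 ± 3.45 CPM in gun1-101 and 8.83 ± 1.28 CPM in WT on control medium.

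The selection took genes raised on both media, so likeness between media is not a separate result. For most genes the size of the difference varied by no more than 0.3 log2 units between media. It was larger on control medium by over 0.3 log2 units for 8 genes, against 3.79% of the 1503 eligible genes that were higher in gun1-101 on both media. These were At17.1, PS2, MES16, AT3G47540, 5PTASE11, GRP3S, AT4G11655 and SLAH2. It was larger on spectinomycin by over 0.3 for another 8, against 5.85%: MYB77, CRK18, AT3G59480, MC9, AT1G10040, VAMP723, AT2G44290 and AT1G78460. The 16 genes are those past a fixed size and no test was made of them.

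GRP3S, the gene whose gun1-101 and WT libraries overlapped, read 1.12, 5.28 and 1.23 CPM in the WT libraries and 6.6, 8.36 and 4.92 CPM in those of gun1-101 on control medium. WT control replicate 2, the library that stood apart, was above 1 gun1-101 library. Without that library all 100 genes were separated on both media, the selection rule returned 82 of the same 100 genes, and 84 genes had all gun1-101 libraries above the others.

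The genes were chosen for a wide gap between gun1-101 and WT, so where the other genotypes lie beside them is a description. nac103-11 libraries lay below all gun1-101 libraries on control medium for 94 of 100 genes, against 16% of eligible genes, and on spectinomycin for 96, against 13.6%. NAC103-OX libraries did so for 97 genes on control medium, against 13.2%, and for 99 on spectinomycin, against 13.4%. The median difference from WT in nac103-11 was 0.23 log2 units on control medium and 0.16 on spectinomycin, where the medians of all eligible genes were -0.12 and -0.06. In NAC103-OX the median difference from WT was -0.19 on control medium and -0.05 on spectinomycin, against 0.04 and 0.00 for all eligible genes. TMM scaling shifts log2 CPM against WT by 0.14 and 0.07 in nac103-11 and by -0.05 and 0.01 in NAC103-OX. These comparisons share the WT and gun1-101 libraries with the selection and were not tested.

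nac103-11 libraries were all above the WT libraries for 48 genes on control medium, against 12.4% of eligible genes, and for 44 on spectinomycin, against 9.91%. NAC103-OX libraries were all below WT for 41 genes on control medium, against 16.1%, and for 23 on spectinomycin, against 14.6%. The midpoint between the WT and gun1-101 means is set by the values that chose the genes, so counts past it are a description, and nothing is read from them against the other genes. The nac103-11 mean lay above the midpoint for 19 genes on control medium, against 43.7% of the 1503 eligible genes higher in gun1-101 on both media, and for 11 on spectinomycin, against 31%. The NAC103-OX mean did so for 6 genes on each medium, against 24.4% and 26.1%. With TMM scaling the nac103-11 count on spectinomycin was 7 in place of 11. Without WT control replicate 2 the nac103-11 counts were 21 and 11 and those of NAC103-OX 5 and 6. For 73 genes neither genotype passed the midpoint on either medium.

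**Figure D3:**
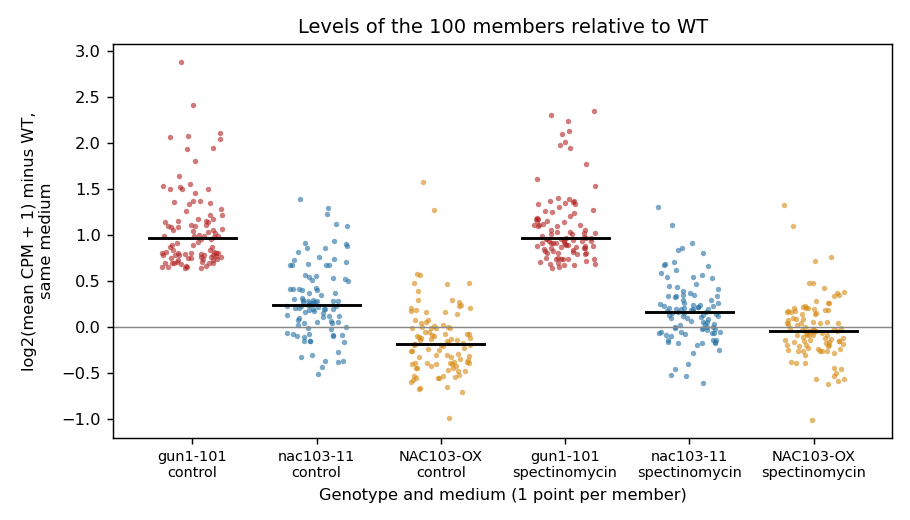
Difference from WT on the same medium, log2(mean CPM + 1) (vertical axis), for each of the 100 genes in gun1-101, nac103-11 and NAC103-OX on each medium; points are genes and bars medians. The gun1-101 points chose the set and all lie above 0.6, with medians of 0.96; the nac103-11 medians are 0.23 and 0.16 and the NAC103-OX medians -0.19 and -0.05.

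MC9 and DMP2 were above the midpoint in both genotypes on both media. MC9, a metacaspase active in dying xylem cells, read 5.55, 3.52 and 4.99 CPM in the WT libraries and 8.31, 8.36 and 10.1 CPM in those of gun1-101 on control medium, with 14.8, 13.3 and 13.6 CPM in nac103-11 and 16, 15.5 and 16.3 CPM in NAC103-OX. On spectinomycin it read 5.9, 5.19 and 4.51 CPM in the WT libraries and 16.7, 13.2 and 14.3 CPM in those of gun1-101, with 13.2, 14.2 and 15.3 CPM in nac103-11 and 12, 12.5 and 12.2 CPM in NAC103-OX. On control medium the nac103-11 and NAC103-OX libraries were above gun1-101. DMP2, a neighbour of DMP1 in the same family, read 5.92, 4.51 and 4.48 CPM in the WT libraries and 7.99, 9.48 and 9.14 CPM in those of gun1-101 on control medium, with 9.99, 10.7 and 9.78 CPM in nac103-11 and 7.92, 8.32 and 7.39 CPM in NAC103-OX. The nac103-11 libraries were above gun1-101, while NAC103-OX overlapped gun1-101. TPS11 read 177, 207 and 177 CPM in the WT libraries and 309, 317 and 322 CPM in those of gun1-101 on control medium, with 392, 407 and 401 CPM in nac103-11 and 184, 189 and 184 CPM in NAC103-OX. Its nac103-11 libraries were above gun1-101 on control medium, and NAC103-OX was near WT.

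Genes whose nac103-11 mean was above the midpoint on both media were DOF1, AT1G63580, ERF4, 5PTASE11, MC9, TPS11 and DMP2. For the NAC103-OX mean these were XTR6, MC9, TRX5, DMP2 and RLP50. Means were below WT in both genotypes on both media for 8 genes, against 17.6% of eligible genes: AT1G14480, AT2G03505, AT1G58807, AT1G59124, AT2G36430, SNC1, SAL1 and AT2G24170. SNC1, for example, was at 33.2 ± 1.44 CPM in nac103-11 and 27.9 ± 1.83 CPM in NAC103-OX against 36 ± 9.09 in WT on control medium, a difference within the WT spread. CYP79B3 was at 55 ± 2.32 CPM in NAC103-OX and 88 ± 4.95 in WT on control medium, and at 48.8 ± 2.87 and 99.3 ± 3.87 CPM on spectinomycin, with no overlap on either medium.

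The 12 libraries of nac103-11 and NAC103-OX took no part in the selection, so comparisons among them were tested. The test was edgeR's quasi-likelihood F test over 19567 genes with Benjamini-Hochberg adjustment, called at an adjusted p below 0.05. In nac103-11, 67 genes were lower on spectinomycin than on control medium, 1 was higher and 32 were not called, against 23.4% lower and 21.4% higher among all tested genes. The median change was -0.41 log2 units, against 0.02 over all tested genes, and ranged from -1.16 to 0.58. Leaving out nac103-11 control replicate 1 gave 2 higher genes in place of 1. Across the runs that left out 1 replicate, 58 to 63 genes were lower in place of 67. In NAC103-OX few genes were called: 5 genes were lower, 3 higher and 92 not called, against 2.82% and 2.24%, with a median change of -0.04.

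In the nac103-11 response the lower genes with the smallest p were TPS11 (log2 fold change -0.64 ± 0.0456, adjusted p = 6.33e-16), AT1G06840, a leucine-rich repeat kinase gene (-0.60 ± 0.0468, adjusted p = 1.80e-14), AT4G25170 (-0.60 ± 0.0518, adjusted p = 2.54e-13), AT3G47550, a RING-type zinc finger gene (-0.54 ± 0.0538, adjusted p = 1.94e-11), and CTF2B (-0.78 ± 0.0784, adjusted p = 2.41e-11). Errors are SE of the fitted fold change in edgeR's test, with 3 libraries in each group. The libraries behind TPS11 read 392, 407 and 401 CPM on control medium and 268, 293 and 295 CPM on spectinomycin, and did not overlap. CYP79B3 was the gene that rose, from 65.5, 63.8 and 64.4 to 111, 107 and 102 CPM (0.56 ± 0.0498, adjusted p = 6.37e-13 in edgeR's test). A fall of at least 2-fold was found for AT5G64870, AT3G48450, At17.1 and VIM4.

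In the NAC103-OX response the 8 called genes were AT1G03230 (log2 fold change 0.28 ± 0.0560, adjusted p = 0.00159), DMP2 (0.40 ± 0.116, adjusted p = 0.0336) and ERF4 (0.19 ± 0.0553, adjusted p = 0.0367), which were higher on spectinomycin, and MC9 (-0.41 ± 0.103, adjusted p = 0.0123), CYP79B3 (-0.20 ± 0.0540, adjusted p = 0.0199), AT5G63250 (-0.47 ± 0.132, adjusted p = 0.0277), AT3G56210 (-0.20 ± 0.0573, adjusted p = 0.0346) and AT5G14230 (-0.44 ± 0.128, adjusted p = 0.0350), which were lower. AT1G03230, an aspartyl protease gene, read 70.4, 75.3 and 74.9 CPM on control medium and 88.7, 91 and 93.7 CPM on spectinomycin. AT1G03230 and MC9 stayed called in each alternative run. The other 6 lost their call when certain libraries were left out, and omitting any 1 of the 6 NAC103-OX libraries left 1 to 2 genes higher and 1 to 3 lower in edgeR's test.

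More genes differed between the 2 genotypes on control medium than on spectinomycin. On control medium 76 genes were lower in NAC103-OX than in nac103-11, 4 higher and 20 not called, against 27.9% and 29.1% of all tested genes, with a median difference of -0.67 log2 units against 0.03. On spectinomycin 49 were lower, 11 higher and 40 not called, against 16.7% and 14.4%, with a median of -0.26. Leaving out nac103-11 spectinomycin replicate 2 gave 7 higher genes in place of 11. Across the runs that left out 1 replicate, 40 to 45 genes were lower on spectinomycin in place of 49. On both media 46 genes were lower, against 13.3% of all tested genes. The control medium comparison and the nac103-11 response share the nac103-11 control libraries.

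On control medium the lower genes with the smallest p were TPS11 (-1.29 ± 0.0467, adjusted p = 1.73e-26), ERF4 (-1.25 ± 0.0535, adjusted p = 8.46e-24), AT1G06840 (-0.80 ± 0.0474, adjusted p = 8.85e-19), AT4G25170 (-0.84 ± 0.0525, adjusted p = 5.40e-18) and CTF2B (-1.30 ± 0.0842, adjusted p = 1.84e-17), as log2 fold changes from edgeR. ERF4 read 121, 129.7 and 123 CPM in nac103-11 and 58.6, 62.6 and 57.5 CPM in NAC103-OX on control medium, and the groups did not overlap. CTF2B, a flavin-dependent oxidoreductase gene, read 25.7, 26.3 and 26.8 CPM in nac103-11 and 13, 11.8 and 11.6 CPM in NAC103-OX there. The 4 higher genes were AT3G56210 (0.62 ± 0.0601, adjusted p = 4.09e-12), XTR6 (0.60 ± 0.0980, adjusted p = 6.55e-06), CIPK9 (0.78 ± 0.166, adjusted p = 1.01e-04) and PS2 (1.07 ± 0.230, adjusted p = 1.11e-04).

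On spectinomycin the lower genes with the smallest p were CYP79B3 (-1.18 ± 0.0511, adjusted p = 7.09e-23), TPS11 (-0.69 ± 0.0465, adjusted p = 2.85e-16), AT5G12420, a WSD1-like acyltransferase gene (-0.97 ± 0.0710, adjusted p = 3.98e-15), ERF4 (-0.62 ± 0.0527, adjusted p = 5.69e-13) and DOF1 (-1.20 ± 0.137, adjusted p = 1.48e-09), in edgeR's test. CYP79B3 read 111, 107 and 102 CPM in nac103-11 and 51.3, 45.7 and 49.3 CPM in NAC103-OX there, without overlap. The higher genes with the smallest p were CIPK9 (1.48 ± 0.164, adjusted p = 7.42e-10), XTR6 (1.05 ± 0.104, adjusted p = 3.31e-09), AT3G56210 (0.41 ± 0.0590, adjusted p = 4.20e-07), PS2 (1.22 ± 0.213, adjusted p = 1.15e-05) and GSTU3 (1.02 ± 0.182, adjusted p = 1.71e-05). CIPK9 read 2.71, 1.67 and 1.75 CPM in nac103-11 and 6.38, 5.52 and 5.72 CPM in NAC103-OX on spectinomycin. In none of the 4 comparisons were DMP1, AT1G74450, AT5G47070, AT1G58807, AT1G59124, AT5G59490, AT3G21790, AT2G36430, AT1G32950 and AT3G44630 called.

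By role, as assigned after the members were known, the nac103-11 response was lower for 12 of 21 receptor and immune signalling genes, 7 of 8 transcriptional regulators, 8 of 14 wall, lipid and specialised metabolism genes and 11 of 13 signalling and transport genes, beside 67 of all 100 members and 23.4% of all tested genes. NAC103-OX was lower than nac103-11 on control medium for 15, 8, 11 and 10 of them in the same order, beside 76 of 100 and 27.9%. On spectinomycin the same genotypes differed that way for 10, 7, 8 and 4, beside 49 of 100 and 16.7%. No difference between roles was tested. The change with medium was itself tested between the 2 genotypes after these results were seen: the NAC103-OX response was higher than the nac103-11 response for 46 genes and lower for 2, against 17.1% and 14.4% of all tested genes, with 52 not called and a median difference of 0.44 log2 units. DESeq2 called 42 higher and 1 lower, and leaving out 1 of 8 of the 12 libraries in turn left 1 lower gene.

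**Figure D4:**
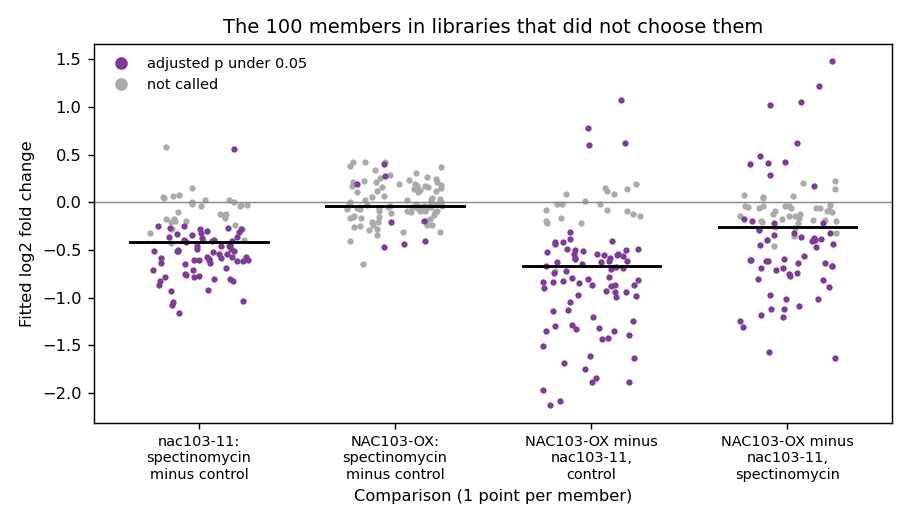
Fitted log2 fold change (vertical axis) of each of the 100 genes in the 4 tested comparisons within and between nac103-11 and NAC103-OX; purple points have an adjusted p below 0.05, grey points do not, and bars are medians. Medians are -0.41 for the nac103-11 response, -0.04 for the NAC103-OX response, and -0.67 and -0.26 for NAC103-OX minus nac103-11 on control medium and spectinomycin.

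The genes were looked at along the chromosomes in the gene order of the RefSeq TAIR10.1 annotation, which was used for order because the build of the deposited table is not given in the sources used here. They lay on all 5 chromosomes, with 27, 19, 24, 13 and 17 on chromosomes 1 to 5, against 26.1%, 14.8%, 20.3%, 14.9% and 23.9% of eligible genes. In 14 of 100 cases another member lay within 10 genes, which held for 5.27% of the 10059 other eligible genes with respect to the members. The 14 count both AT1G58807 and AT1G59124, which are near-identical copies with identical counts. Within 20 genes the numbers were 14 and 10.5%, within 50 they were 30 and 24.4%, and within 100 they were 48 and 42.5%. The ratio of the 2 shares was largest at 10 genes.

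The 14 genes formed 7 pairs. They were AT1G32950 and SBT3.3, both subtilase genes; MKK4 and DOF1; the NLR copies AT1G58807 and AT1G59124; AT2G36430 and AT2G36470; DMP1 and DMP2, of 1 gene family; AT3G47540 and AT3G47550, a chitinase-family and a RING-type gene next to each other; and AT5G59450 and AT5G59490. Genes between the partners were mostly not raised. Between DMP1 and DMP2, AT3G21530 differed by -0.07 and -0.21 log2 units and AT3G21540 by -0.49 and -0.72 on the 2 media. Between MKK4 and DOF1, B ALPHA differed by -0.07 and 0.07, whereas 4CL1, a phenylpropanoid gene, differed by 1.08 and 2.20 and was not eligible. Between the NLR copies, AT1G58848 of the same class differed by 0.76 and 0.60.

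Around GUN1 on chromosome 2, none of the 118 eligible genes within 200 genes of it was a member, and 5 of the 290 within 500 genes were, which is 1.72% against 0.984% of all eligible genes. Those 5 were GSTU3, CTF2B, VAMP723, LYK5 and UXS6. Genes within 200 of GUN1 differed by a median of -0.19 log2 units on control medium and -0.17 on spectinomycin, close to the -0.18 and -0.21 of all eligible genes. AT2G31345, picked out after its values were seen, lies 7 genes from GUN1 and was not eligible, because it fell in WT. It was at 3.09 ± 0.944 CPM in WT and 18.4 ± 1.26 in gun1-101 on control medium, and at 0.0391 ± 0.0677 and 16.2 ± 0.997 CPM on spectinomycin. In nac103-11 it was at 4.85 ± 0.0897 and 0.776 ± 0.262 CPM, and at 0 CPM in all 6 NAC103-OX libraries, where 3 counts, the limit that a count of 0 allows, would be at most 0.208 CPM.

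**Figure D5:**
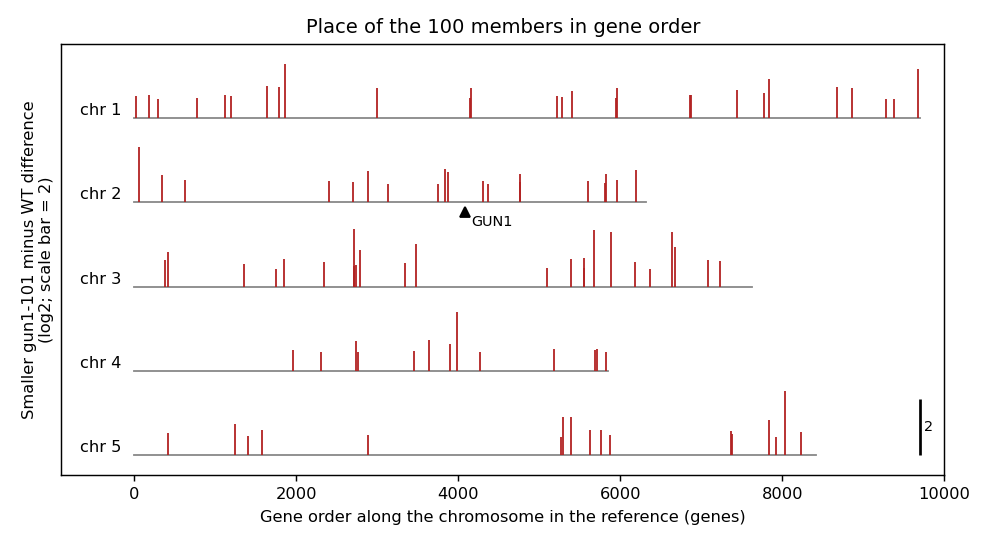
Place of the 100 genes along the 5 chromosomes in reference gene order (horizontal axis, number of genes from the start), with bar height giving the smaller gun1-101 minus WT difference in log2 units; the triangle marks GUN1. The genes are spread over all 5 chromosomes, and none lies within 200 genes of GUN1.

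Genes of pathway lists that were not members were compared between gun1-101 and WT, with edgeR over all genes. The plastid signalling list held none of the 100 genes. Of 22 plastid signalling genes tested, 5 were higher and 4 lower on control medium and 5 higher and 8 lower on spectinomycin, with 13 and 9 not called. DESeq2 called 4 lower on spectinomycin in place of 8. Among all tested genes 24.7% were higher and 15.8% lower on control medium, and 27.7% and 29.3% on spectinomycin. The list's median change was -0.01 and -0.05 log2 units, against 0.01 and -0.05 for all tested genes. FC1, a ferrochelatase of heme synthesis, was higher by 0.61 ± 0.0490 log2 units (adjusted p = 2.93e-14) on control medium and 1.55 ± 0.0505 log2 units (adjusted p = 2.91e-28) on spectinomycin in edgeR's test. CPHSC70-2, a plastid chaperone gene, differed by 0.41 ± 0.0458 log2 units (adjusted p = 4.48e-10) and 0.74 ± 0.0456 log2 units (adjusted p = 2.95e-18) in the same fit. CPN60A, a subunit gene of the plastid chaperonin, differed by -0.25 ± 0.0491 log2 units (adjusted p = 6.67e-05) and -0.41 ± 0.0469 log2 units (adjusted p = 3.84e-10), again in edgeR.

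The 13 indole defence genes besides CYP79B3 were all higher in gun1-101 on both media, with median changes of 1.86 log2 units on control medium and 6.30 on spectinomycin. Among all tested genes 24.7% were higher on control medium and 27.7% on spectinomycin. The lists were chosen with earlier results of these data known. CYP79B2, the paralogue of CYP79B3, was at 149 CPM in WT and 977 in gun1-101 on control medium, and at 79.1 and 963 CPM on spectinomycin. The enzyme gene CYP81F2 fell in WT from 411 to 5.97 CPM between media and was therefore not eligible. Of 14 immunity and salicylate genes besides PAD4, 12 were higher on control medium and 13 on spectinomycin, and none was lower. Their median changes were 1.35 and 3.32 log2 units. EDS1, the partner of PAD4, was at 40.6 CPM in WT and 52.4 in gun1-101 on control medium, and PR1, PR2 and PR5, targets of salicylate signalling, were at or near 0 in these groups. Lists without a member went in both directions. Of 10 mitochondrial dysfunction genes, 3 were higher and 3 lower on control medium, and 8 higher and 0 lower on spectinomycin. Of 6 triterpene genes, 1 was lower on control medium and 6 on spectinomycin, with 0 higher. Of 6 aliphatic glucosinolate genes, 5 and 3 were lower, with 0 higher.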

How the data were processed

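Poly(A) RNA of root tips was sequenced in 24 libraries of 8 groups. Gene levels were deposited in the form of expected counts and FPKM; RSEM 1.3.1 made them, per the submitters' processing notes. The aligner, the genome build and the use of strand are not given in the sources used here. Of the deposited expected counts, 98.3% were whole numbers; all were rounded for the fit. The deposited FPKM, normalised by the authors for length and depth, served for levels per length. The deposited TPM, normalised counts and group averages were not used.

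CPM was computed from library totals of 13012580 to 17411876 counts. The members and gene lists were chosen with earlier results of these data known. Fits used edgeR 4.0.16 in R 4.3.3 on all 24 libraries with 1 mean per group, TMM factors, filterByExpr (counts from 10, totals from 15), and Benjamini-Hochberg adjustment over 19567 genes. The fit was tested on simulated data. DESeq2 1.42.0, size factors by relative log expression, no filter, a replicate block, groups of the contrast only and leaving out each replicate were alternatives, with other settings of the selection rule.

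Genes were named as follows: GUN1 and NAC103, the first 20 members, members in runs within 10 genes, members in a pathway list, the 5 most significant called members per direction in each tested comparison, up to 3 plastid signalling genes, and the genes at the edge of the set. Others were named after their values were seen. Of the 24497 gene IDs, 24424 were in the RefSeq TAIR10.1 table used for names and gene order. No sequences or coordinates were used. Same-numbered replicates did not deviate together (correlations of -0.0744 to 0.0771 over 84 pairs of libraries), so the numbers were not treated as pairs.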

Additional observations from a re-analysis of the deposited data

Results flagged for a closer look

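For 48 of the 100 genes the change from control medium to spectinomycin differed between NAC103-OX and nac103-11 in edgeR's test of the difference itself, a test added after the results were seen. The value was higher for 46 genes and lower for 2, against 17.1% and 14.4% of all tested genes. Values are the NAC103-OX response minus the nac103-11 response, in log2 units, with 3 libraries in each group. The 10 genes with a higher value in NAC103-OX and the smallest adjusted p in edgeR's fit, given with SE, were AT1G03230 (0.74 ± 0.0786, adjusted p = 3.00e-10), TPS11 (0.60 ± 0.0655, adjusted p = 5.09e-10), ERF4 (0.64 ± 0.0751, adjusted p = 3.99e-09), AT1G06840 (0.51 ± 0.0671, adjusted p = 5.78e-08), MKK4 (0.79 ± 0.127, adjusted p = 3.11e-06), AT3G48450 (1.21 ± 0.197, adjusted p = 3.92e-06), AT4G25170 (0.45 ± 0.0745, adjusted p = 4.57e-06), AT1G78460 (0.76 ± 0.125, adjusted p = 4.64e-06), AT3G47550 (0.46 ± 0.0783, adjusted p = 7.92e-06) and DGK5 (0.42 ± 0.0730, adjusted p = 9.81e-06). The 2 genes with a lower value, in edgeR's test, were CYP79B3 (-0.77 ± 0.0735, adjusted p = 1.82e-11) and AT3G56210 (-0.22 ± 0.0843, adjusted p = 0.0422).

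The other 36 genes had a higher value in NAC103-OX. With an adjusted p of 1.73e-05 to 0.00892 in edgeR's test came CTF2B (0.69), 5PTASE11 (1.06), AT5G25050 (0.48), AT3G14470 (0.47), CCR2 (0.72), MES16 (1.16), AT3G53810 (0.46), AT5G59450 (0.51), AT4G35070 (1.23), AT2G24170 (0.43), VIM4 (1.12), PMT5 (0.25), SAL1 (0.51), MYB2 (0.86), ZPR1 (0.92), GATA5 (0.53), At17.1 (1.08), GSTU3 (0.94), AT1G77660 (0.54) and AT4G21865 (1.03). With an adjusted p of 0.0100 to 0.0442 in the same edgeR test came PAD4 (0.37), CYCP3;2 (0.51), AT1G10040 (0.50), AT4G11655 (0.68), AT4G38940 (0.45), AT1G63580 (0.72), XTR6 (0.45), VAMP723 (0.52), AT3G26080 (0.56), CIPK9 (0.70), AT2G44290 (0.50), RABA4C (0.44), AT1G66500 (0.42), AT4G39230 (0.32), AT3G22060 (0.62) and AT5G63250 (0.45). Of the 48 genes, 32 kept their call under each alternative of this test.

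TPS11, AT1G06840, AT4G25170, AT3G47550 and CTF2B are genes that fell in nac103-11, and CYP79B3 is the gene that rose there. AT3G56210 and XTR6 were higher in NAC103-OX than in nac103-11 on both media. No explanation of these differences was tested.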

How the results depend on the processing

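The 36 alternatives were each run on the results they apply to. No fold change of a named gene changed sign in the 363 values recomputed for the tested comparisons or the 816 for the difference of the responses. Of the 100 genes, a pseudocount of 5 CPM kept 58, WT response limits of 0.2 and 0.5 kept 60 and 65, and a minimum of 1 CPM kept 50; TMM scaling kept 72. Leaving out 1 WT or gun1-101 library kept 82 to 99. With TMM scaling, nac103-11 passed the midpoint on spectinomycin for 7 genes. With the groups of the contrast only, 3 genes were higher in the nac103-11 response; with DESeq2, 4 plastid signalling genes were lower on spectinomycin. The cause was not tested.

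Leaving out each replicate gave 1 to 2 higher and 58 to 63 lower genes in the nac103-11 response, beside 1 and 67 with all libraries. In the NAC103-OX response it gave 1 to 2 higher and 1 to 3 lower. For NAC103-OX against nac103-11 on control medium it gave 4 higher and 74 to 76 lower. On spectinomycin it gave 7 to 10 higher and 40 to 45 lower, beside 11 and 49. For the NAC103-OX response minus the nac103-11 response it gave 41 to 44 higher and 1 to 2 lower genes; DESeq2 gave 1 lower. Among genes named in the tested comparisons, 28 results of leaving out a library, of DESeq2 or of the smaller fit lost their call, all in the NAC103-OX response, for AT3G56210, AT5G14230, AT5G63250, CYP79B3, DMP2 and ERF4; the other 335 kept direction and call. For the difference of the responses, 77 values of 16 genes lost their call and 739 kept it.

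With the replicate block, 67 genes were lower and 1 higher in the nac103-11 response, 5 lower and 3 higher in the NAC103-OX response, 75 lower and 4 higher in NAC103-OX against nac103-11 on control medium, and 49 lower and 11 higher on spectinomycin; for the difference of the responses 46 were higher and 2 lower. The block left 5 higher and 4 lower plastid signalling genes on control medium and 5 higher and 8 lower on spectinomycin. Library depth limits the lowest members: 1 had 4 counts in its lowest library.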
